A study of Homo sapiens with 17 samples.

Results

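The 4 HOX clusters hold the homeobox transcription factor genes that give cells their position along the body axis, and peak lists from chromatin of HCC1954 cells were read here at each of them. Members were all RefSeq protein-coding genes whose symbol is HOXA, HOXB, HOXC or HOXD followed by a number. They numbered 39 of 19974 protein-coding genes, with 11 in HOXA on chromosome 7, 10 in HOXB on chromosome 17, 9 in HOXC on chromosome 12 and 9 in HOXD on chromosome 2. HCC1954 is a human breast cancer line that the labels call HER2-positive. Cells were transfected with antisense oligonucleotides (ASOs) and fixed after 72 h, per the labels' protocols, in an Si1235 and an NC1235 arm, names that the labels do not spell out. The title of the series refers to LINC01235, a long non-coding RNA. Both arms are transfected cells of that single line, so no untransfected cells enter the comparison, and nothing in the labels says whether replicates came from separate cultures. The Si1235 arm had 2 libraries of chromatin immunoprecipitation and sequencing (ChIP-seq) for each of the histone variant H2A.Z (H2AZ in the labels), H3K27ac and H3K36me3 and 1 for H3K9ac, and the NC1235 arm had the same.

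Within a cluster the HOX genes lie in order of their numbers, and in embryos low-numbered genes act toward the head and high-numbered genes toward the tail. Polycomb complexes keep the genes silent where a cell does not use them, and trithorax proteins keep the others open, so a cultured cell usually has a cluster divided into silent and active stretches. H3K27ac and H3K9ac are acetyl marks of active starts and enhancers, H2A.Z sits in nucleosomes beside gene starts and also at polycomb-bound starts, and H3K36me3 is laid down over the bodies of transcribed genes. In the breast, HOXB7 and HOXC10 have been studied as genes raised in cancer and HOXA5 as a gene lost in it.

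The measure was peak cover, the percent of bases of a window that lie in a peak of the authors' list for 1 library. The window for H2AZ, H3K27ac and H3K9ac ran 1 kb to either side of the gene start, and that for H3K36me3 was the whole annotated gene. HOXC4, HOXC5 and HOXC6 have the same annotated start, so the 39 genes had 37 distinct start windows. A start was called marked where its cover averaged 50% or more across all libraries of that mark, bare where no library had a peak in the window, and part marked otherwise. Peak cover says where enrichment was called, not how much, and cannot pass 100%. A bare start had no called peak, which does not show that the mark was absent. In such bulk chromatin, a mark on fewer cells and less of the mark in each cell cannot be told apart.

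The lists held 42759 to 81320 peaks per ChIP-seq library and carry no read counts, so depth is unknown and no counting interval can be given. For each replicated mark and arm, replicate 2 had a lower local background (solved from weak peaks) than replicate 1, which is an indirect sign of shallower libraries. In the 2 NC1235 H3K27ac lists 0.13% and 4.53% of solved pileups were whole numbers, against 100% in the other 13 lists, so those 2 were taken as scaled by the authors' peak caller or before it. The part of this difference in the H3K27ac results between arms was not tested. H3K36me3 covered the body of 7 of 8 breast epithelial marker genes at 5% or more, with a median of 66.6% in Si1235 and 67.7% in NC1235 libraries. Of the same 8 genes, 2 (ERBB2 and KRT8) had an annotated start. Both starts reached 5% for H3K27ac and ERBB2 alone for H2AZ. Of 4 blood and immune marker genes, 2 of them with a start, CD14 alone reached 5%, with H3K27ac cover of 23.85% and 40.45% in Si1235 and 22.1% and 41.95% in NC1235. Of 3 endothelial marker genes PECAM1 alone did, with H3K36me3 cover of 18.0% and 16.2% in Si1235 and 21.6% and 13.5% in NC1235, and of 3 fibroblast marker genes, 1 with a start, none did. The part of other cell types in the HOX values was not tested.

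The promoters at the borders between marked and bare H3K27ac starts are shown because the H3K27ac pattern changes there. Whether the genes beside them were active or silent was not tested. A border is a pair of neighbouring genes of which 1 had a marked and 1 a bare H3K27ac start. RefSeq promoter sequence (GRCh38.p14, 250 bases before to 50 bases after the start, 5′ to 3′) was at hand for 5 border genes with distinct sequences, and capitals mark CpG dinucleotides, the bases that DNA methylation acts on in human cells. HOXA9 and HOXC4 had marked starts, and HOXA7, HOXA10 and HOXB1 had bare ones. The HOXA10 promoter shown is that of its outermost start, and an inner start of HOXA10 was part marked.

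HOXA7 promoter, chr7:27156626-27156925, minus strand: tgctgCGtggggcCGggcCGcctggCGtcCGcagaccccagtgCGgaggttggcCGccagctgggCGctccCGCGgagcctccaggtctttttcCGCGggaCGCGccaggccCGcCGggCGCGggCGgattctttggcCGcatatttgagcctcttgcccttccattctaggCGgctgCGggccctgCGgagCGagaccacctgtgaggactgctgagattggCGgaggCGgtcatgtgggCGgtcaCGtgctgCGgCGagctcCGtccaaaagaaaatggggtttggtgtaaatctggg

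HOXA9 promoter, chr7:27165488-27165787, minus strand: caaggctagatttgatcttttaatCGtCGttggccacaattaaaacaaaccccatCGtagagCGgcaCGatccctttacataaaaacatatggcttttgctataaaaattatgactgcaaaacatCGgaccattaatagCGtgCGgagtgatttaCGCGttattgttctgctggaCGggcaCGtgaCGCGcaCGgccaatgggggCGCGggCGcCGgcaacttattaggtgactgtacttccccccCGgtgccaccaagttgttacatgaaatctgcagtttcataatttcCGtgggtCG

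HOXA10 promoter, chr7:27179812-27180111, minus strand: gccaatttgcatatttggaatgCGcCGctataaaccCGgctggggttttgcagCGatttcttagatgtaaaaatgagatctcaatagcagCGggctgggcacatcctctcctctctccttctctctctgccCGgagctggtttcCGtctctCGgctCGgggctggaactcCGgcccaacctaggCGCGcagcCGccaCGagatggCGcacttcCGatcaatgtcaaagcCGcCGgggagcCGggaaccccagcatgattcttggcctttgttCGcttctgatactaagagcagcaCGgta

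HOXB1 promoter, chr17:48530962-48531261, minus strand: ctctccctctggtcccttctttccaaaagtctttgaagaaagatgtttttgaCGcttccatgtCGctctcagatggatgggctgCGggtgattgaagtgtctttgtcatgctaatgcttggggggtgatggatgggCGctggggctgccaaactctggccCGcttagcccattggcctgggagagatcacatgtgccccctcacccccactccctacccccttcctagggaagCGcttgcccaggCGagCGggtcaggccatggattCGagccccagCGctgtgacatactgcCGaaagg

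HOXC4 promoter, chr12:54016638-54016937, plus strand: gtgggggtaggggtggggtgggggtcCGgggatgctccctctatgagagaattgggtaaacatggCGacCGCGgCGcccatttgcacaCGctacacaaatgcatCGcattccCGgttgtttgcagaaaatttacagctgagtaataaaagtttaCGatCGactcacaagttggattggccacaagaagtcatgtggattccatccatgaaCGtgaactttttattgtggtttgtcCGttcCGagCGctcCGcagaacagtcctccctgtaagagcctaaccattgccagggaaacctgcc

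CpG content did not sort these starts by their marks. The bare HOXA7 promoter held 31 CpGs, the bare HOXA10 promoter 21 and the bare HOXB1 promoter 11, beside 22 for the marked HOXA9 promoter and 15 for the marked HOXC4 promoter. Over the 20 members with promoter sequence, which had 19 distinct sequences, the median was 22.5 CpGs with a range of 4 (HOXD4) to 44 (HOXA13), against a median of 14 for 27195 genes. GC content did not stand apart, with a median of 58.0% in HOX and 58.3% in all promoters. The letters CCAAT on either strand stood in 17 of the 20 HOX promoters, against 35.7% of all promoters, and TATAAA on either strand in 4 of 20, against 11.97%. TGATTNAT on either strand, the core of a site that HOX proteins and their PBX partners can share, stood in 2 of 20, against 2.94%. These counts describe letters in a 300-base window, and HOXC4 and HOXC5 share theirs.

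The clusters also carry microRNA genes, and 3 mature RNAs are shown because 2 of them share a seed (bases 2 to 8, in capitals) while coming from genes in different clusters. MicroRNAs of the miR-196 family are known to target HOX messages, HOXB8 among them.

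hsa-miR-196b-5p: uAGGUAGUuuccuguuguuggg

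hsa-miR-196a-5p: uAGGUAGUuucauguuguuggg

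hsa-miR-10a-5p: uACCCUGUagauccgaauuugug

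The window at the start of MIR196B, in the HOXA cluster between HOXA9 and HOXA10, was covered 100% by H3K27ac in each of the 4 libraries. The windows of MIR196A1 in HOXB and MIR196A2 in HOXC, the 2 genes that give miR-196a-5p, had no H3K27ac or H2AZ peak in any library. MIR196A1 had no H3K9ac peak either, whereas H3K9ac covered 38.55% of the MIR196A2 window in Si1235 and 39.6% in NC1235. MIR10A, beside HOXB4, was bare for H3K27ac as well. In all, 1 of 8 microRNA genes in the clusters had a marked H3K27ac start and 7 were bare. A microRNA start here is the end of a short annotated gene, such as 48579838–48579947 for MIR10A. Where transcription of these genes begins was not read, so a bare window does not describe their promoters.

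**Figure D1:**
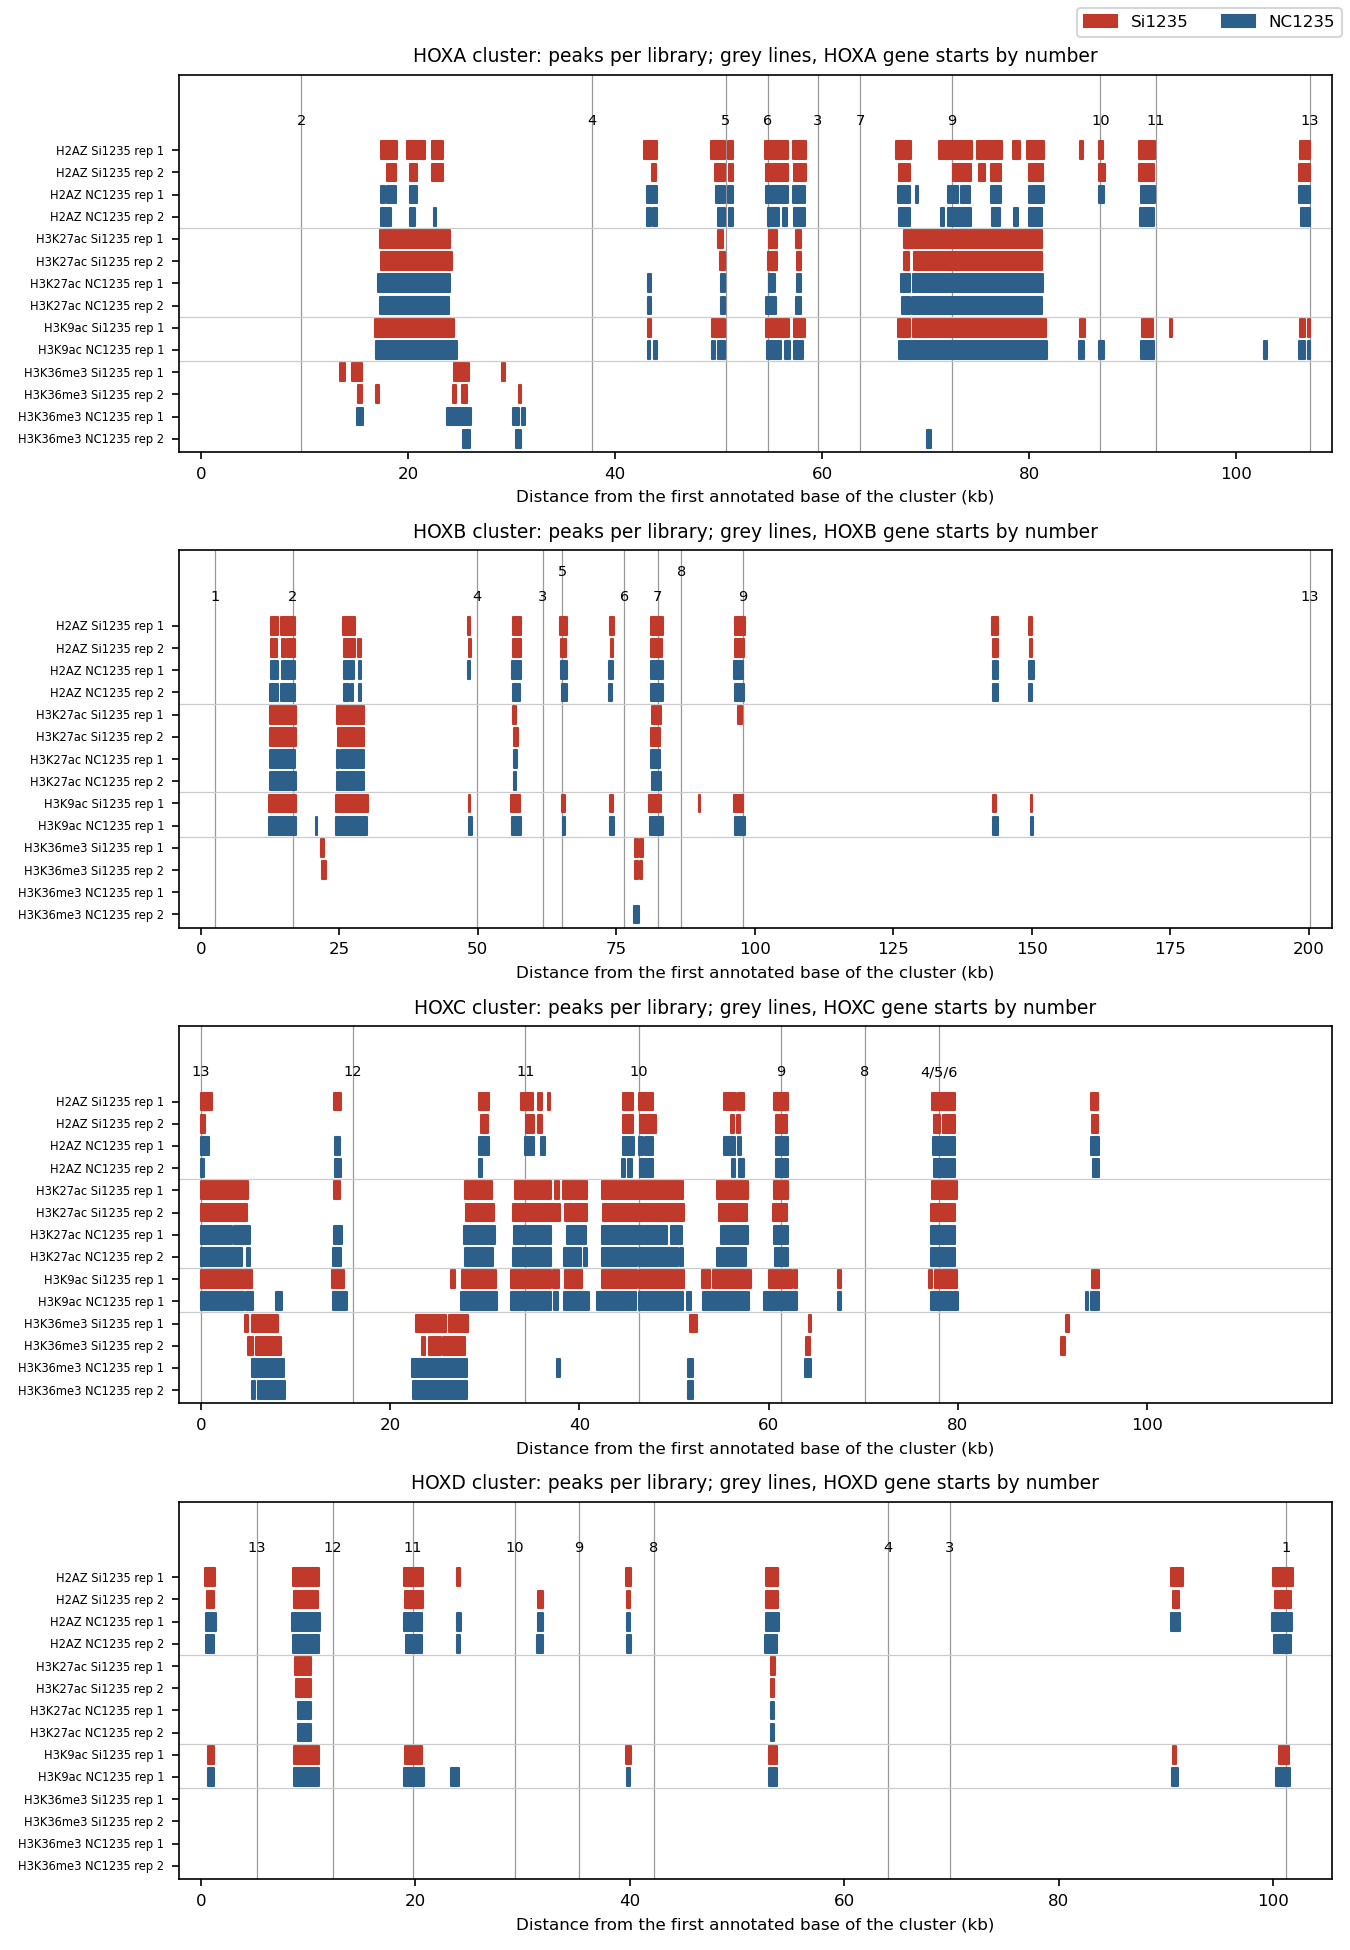
Peaks of each library across the 4 HOX clusters, by distance in kb from the first annotated base of each cluster, with a row per library (Si1235 above NC1235 within each mark) and grey lines at HOX gene starts. H3K27ac was grouped in a few wide domains in HOXA, HOXB and HOXC, whereas HOXD had 2 short H3K27ac regions, and no H3K36me3 peak fell in HOXD in any of the 4 libraries.

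More HOX starts were bare than marked for each of H2AZ, H3K27ac and H3K9ac, and some members had mixed patterns. Counts here are by gene, so the start shared by HOXC4, HOXC5 and HOXC6 counts for each of them. For H3K27ac, 10 starts were marked, 4 part marked and 25 bare. For H2AZ the counts were 16, 3 and 20, and for H3K9ac they were 15, 6 and 18. Of 15832 protein-coding genes with a start, 46.3% were marked and 40.5% bare for H3K27ac. The shares were 55.1% and 32.2% for H2AZ, and 58.3% and 32.8% for H3K9ac. These genes include the 39 members, of which 19 were placed by the strand of their cluster. Starts of 9 members were marked for all of H2AZ, H3K27ac and H3K9ac, namely HOXA9, HOXB2, HOXB7, HOXC4, HOXC5, HOXC6, HOXC9, HOXC10 and HOXC13. Starts of 18 members were bare for all of them, among them HOXA2, HOXA3, HOXA4 and HOXA7 in HOXA, HOXB1, HOXB3, HOXB6, HOXB8 and HOXB13 in HOXB, HOXC8 in HOXC, and HOXD13, HOXD12, HOXD10 and HOXD4 in HOXD. The window width sets these counts in part. At 2.5 kb to either side no H2AZ start was marked and 26 were part marked, since H2AZ peaks are narrower than that window.

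**Figure D2:**
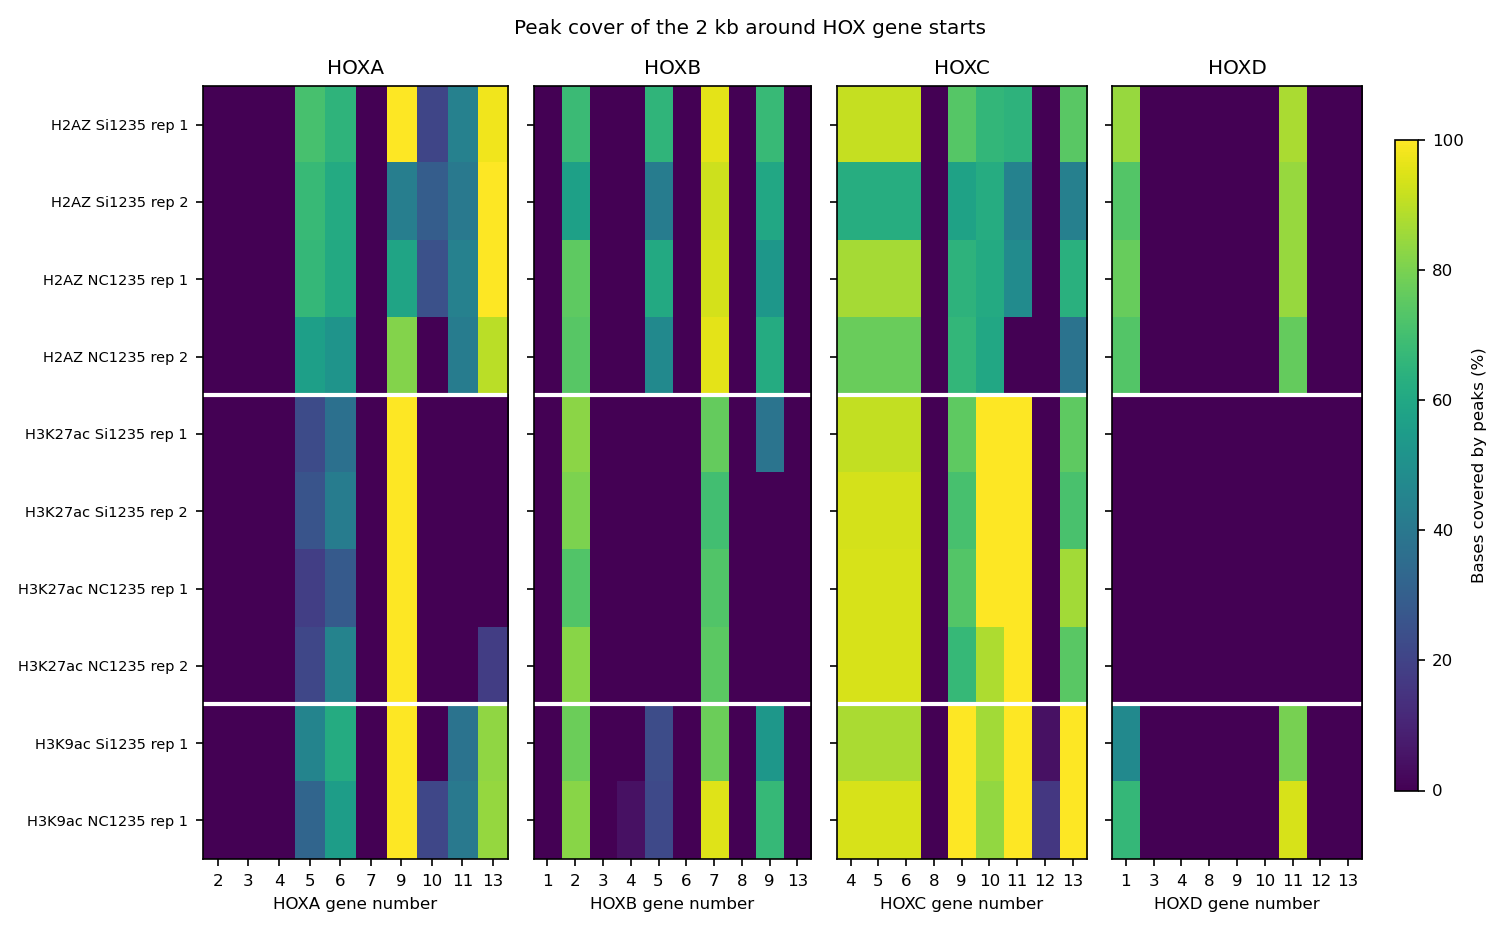
Percent of bases covered by peaks in the window of 1 kb to either side of the HOX gene starts shown (colour, 0 to 100%), by gene number and library, with Si1235 above NC1235 for each mark. HOXC had 7 of 9 H3K27ac starts marked, with the start shared by HOXC4, HOXC5 and HOXC6 counted for each, and HOXD had 0 of 9. The libraries of a mark left the same starts bare except at HOXA10, HOXC11 (H2AZ), HOXA13, HOXB9 (H3K27ac), HOXA10 and HOXB4 (H3K9ac).

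HOXC was the cluster most widely marked by H3K27ac, with 7 of 9 starts marked and only HOXC8 and HOXC12 bare. The start shared by HOXC4, HOXC5 and HOXC6 is counted for each of them. The region at that start (54016009–54018719) was the last H3K27ac region of the cluster, and the bodies of these genes had none beyond it. Any inner starts of these genes were not read, so their class is that of the shared start alone. HOXC11 had the highest H3K27ac cover, at 100% in all 4 libraries. HOXC10 had 100% and 100% in Si1235 libraries, against 100% and 87.65% in NC1235 libraries. HOXC13, a gene needed for hair and nail formation, had 75.2% and 71.4% in Si1235 and 86.1% and 74.45% in NC1235. These 3 genes have high numbers within the cluster, as does HOXC9, with 75.05% and 71.0% in Si1235 and 73.15% and 67.1% in NC1235.

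Farther along, the shared start of HOXC4, HOXC5 and HOXC6 had 90.95% and 93.6% in Si1235 and 93.95% and 93.9% in NC1235, beyond the bare HOXC8. HOXC8 lay 8824 bp from the HOXC9 start and 7903 bp from the shared start, and none of its 10 window values for H2AZ, H3K27ac and H3K9ac was above 0. HOXC12, between HOXC13 and HOXC11, had no H2AZ or H3K27ac peak in its window. Its H3K9ac cover was 4.55% in the Si1235 and 16.4% in the NC1235 library. For H2AZ the shared start led the cluster, with 91.4% and 62.4% in Si1235 and 86.5% and 77.25% in NC1235. H2AZ at HOXC11 was uneven, with 64.8% and 44.35% in Si1235 and 48.3% and 0% in NC1235.

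HOXA had a single fully marked start. HOXA9, a gene known for its part in leukaemia, was covered 100% by H3K27ac in all 4 libraries and 100% by H3K9ac in both. H2AZ at HOXA9 spread widely between libraries, with 100% and 42.95% in Si1235 and 58.4% and 81.3% in NC1235. HOXA7, a neighbour 8862 bp away, was bare for H2AZ, H3K27ac and H3K9ac. HOXA10, the other neighbour and a gene of uterine development, was bare for H3K27ac at its outermost start, 14324 bp away, and had H2AZ cover of 20.75% and 29.35% in Si1235 and 24.9% and 0% in NC1235.

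The part-marked HOXA starts had narrow peaks. HOXA6 had H3K27ac cover of 36.85% and 42.0% in Si1235 and 28.2% and 44.85% in NC1235. HOXA5 had 22.9% and 26.0% in Si1235, against 18.5% and 21.2% in NC1235. HOXA13, a gene of the limb ends and the urogenital tract, had the highest H2AZ cover of the cluster, with 98.0% and 100% in Si1235 and 100% and 89.7% in NC1235. H3K27ac at HOXA13 was 0% in both Si1235 libraries and 0% and 18.3% in NC1235 libraries. HOXA2 and HOXA4, low-numbered genes of hindbrain and neck levels, had no peak of H2AZ, H3K27ac or H3K9ac in their windows.

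In HOXB each marked H3K27ac start lay between HOX genes with bare starts, with HOXB3 read only at its outermost gene end. HOXB2, a hindbrain patterning gene, had 82.75% and 80.15% in Si1235 and 72.75% and 82.35% in NC1235. Its neighbours HOXB1 and HOXB4 had no H3K27ac peak. HOXB7 had 76.25% and 69.85% in Si1235 and 73.0% and 74.9% in NC1235, between the bare HOXB6 at 6031 bp and the bare HOXB8 at 4275 bp. HOXB7 also had the highest H2AZ cover of the cluster, with 96.05% and 92.25% in Si1235 and 93.5% and 95.75% in NC1235. HOXB9 had an H3K27ac peak in a single library, with 38.35% and 0% in the Si1235 libraries and none in the NC1235 ones, although H3K9ac covered 52.8% of the window in Si1235 and 67.05% in NC1235. HOXB13, a gene of the prostate lineage that lies far from the rest of the cluster, was bare for H2AZ, H3K27ac and H3K9ac.

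HOXD had no H3K27ac peak in any of its 9 start windows. HOXD11 and HOXD1 nevertheless carried H2AZ and H3K9ac. H2AZ covered 87.2% and 84.4% of the HOXD11 window in Si1235 and 84.55% and 76.3% in NC1235, and H3K9ac covered 79.65% in Si1235 and 93.8% in NC1235. At HOXD1 H2AZ covered 84.5% and 73.35% in Si1235 and 76.65% and 73.35% in NC1235, and H3K9ac covered 47.45% in Si1235 and 66.65% in NC1235. The other 7 HOXD genes, HOXD13 of the digits among them, had none of these marks in their windows.

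HOXD1 and HOXD11 were not weak H2AZ sites. The fold enrichment of the strongest H2AZ peak in the HOXD1 window, a value of the authors' peak caller like all fold enrichments here, was 57.0 and 38.5 in Si1235 and 20.4 and 29.0 in NC1235. It lay above 99.83%, 99.3%, 85.25% and 97.67% of the peaks of the same lists. At HOXD11 the values were 39.2 and 22.1 in Si1235 and 20.2 and 20.7 in NC1235, above at least 84.92% of each list. HOXB5 was the other member with a marked H2AZ and a bare H3K27ac start, at H2AZ cover of 65.6% and 41.8% in Si1235 and 60.85% and 47.45% in NC1235. Its H2AZ fold enrichments were 16.9 and 15.9 in Si1235 and 21.7 and 18.8 in NC1235, above at least 74.91% of each list. In all, counted by gene, 3 of 16 HOX starts marked by H2AZ were bare for H3K27ac, or 18.75%, against 569 of 8706 other protein-coding starts, or 6.54%. Each of the 3 held an H3K9ac peak in both arms, as did 96.5% of the other 569.

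Wide acetylated domains stood within and between the genes. The widest lay across HOXA9 and reached into the HOXA10 body (27170605–27179861), at chromosome 7: 27160602–27174307 (hg38), a merged region of 13706 bp. Single H3K27ac peaks in it were 13380 and 12333 bp wide in Si1235 and 12566 and 12596 bp in NC1235, each wider than at least 99.86% of the peaks in its list. H3K9ac peaks there were 12859 bp wide in Si1235 and 14335 bp in NC1235. The domain ended beside the inner annotated start of HOXA10, at 27174320, whose window had H3K27ac cover of 46.8% and 44.65% in Si1235 and 49.4% and 47.75% in NC1235. HOXA10 was thus bare at its outermost start and part marked at the inner one.

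HOXA3, a gene of thymus, parathyroid and neck patterning, showed the same dependence on the start. Its outermost start was bare. The innermost annotated start, at 27113842, was covered 100% by H3K27ac in all 4 libraries and 100% by H3K9ac in both. That start lay in a domain of 7105 bp (27110134–27117238) with fold enrichments of 98.8 and 64.8 in Si1235 and 105.7 and 95.6 in NC1235. A start at 27150950 was part marked, with H3K27ac cover of 25.85% and 21.3% in Si1235 and 19.65% and 22.15% in NC1235. The other 4 of its 7 annotated starts, from 27118357 to 27123027, had no H2AZ or H3K27ac peak in any library, so the class of HOXA3 depends on which start is read.

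In HOXB the strongest H3K27ac region lay inside the annotated body of HOXB3, at chromosome 17: 48553036–48558033, with fold enrichments of 106.2 and 96.5 in Si1235 and 111.6 and 94.2 in NC1235. It covered 100% of the start window of the antisense gene HOXB-AS2 in all 4 libraries. The domain at HOXB2 (48540940–48545763) had fold enrichments of 78.9 and 73.2 in Si1235 and 68.9 and 49.2 in NC1235. In HOXC the widest region was 8612 bp at HOXC10, on chromosome 12: 53981249–53989860. HOXD had only regions of 1575 and 403 bp, the nearest of them 1999 bp from the HOXD12 start.

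Fold enrichments of H3K27ac at the HOXB7 start were 71.5 and 49.9 in Si1235, against 38.7 and 26.3 in NC1235, and did not overlap between arms. These are values within lists, and the 2 NC1235 H3K27ac lists are the ones with scaled pileups, so no comparison is drawn from them. Over the same start the H3K27ac cover of the arms overlapped.

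Of 23 lncRNA genes in the clusters, 15 had an annotated start, of which 2 were marked for H3K27ac (HOXB-AS1 and HOXB-AS2), 1 was part marked (HOXA-AS3) and 12 were bare. The rest had no start in the table and are not in these counts, and some had wide H3K27ac over the body. It covered 100% of HOXA10-AS in all 4 libraries. The lowest library values were 96.8% for LOC124902939, 84.3% for HOXC-AS3, 81.6% for HOXC-AS2 and 45.3% for HOXC-AS1. HOTAIRM1 and HOXBLINC had no H3K27ac peak in the body. HOTAIR, the HOXC antisense RNA studied for its raised level in breast cancer, had no start in the table, so only its body was read (chromosome 12: 53962312–53974954). H3K36me3 covered 34.7% and 30.6% of it in Si1235 and 36.4% and 36.6% in NC1235. H3K27ac covered 46.0% and 47.8% in Si1235 and 49.1% and 48.2% in NC1235. HOTAIR overlaps the HOXC11 gene, and ChIP-seq peaks carry no strand.

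H3K36me3 was sparse over HOX bodies. Peaks fell in the bodies of 10 of 39 members, and 4 members passed the mean of 5% needed for the test. Of the 10 members with a marked H3K27ac start, 8 had some H3K36me3, but only 3 reached the mean of 5%. HOXA9 and HOXC11 were among the 8 through a single library. Of the 4 with a part-marked start none had any. Of the 25 with a bare start 2 had some, HOXA3 and HOXB3, and 1 of them, HOXA3, reached 5%. Both were classed by their outermost start. The inner HOXA3 start at 27113842 was covered 100% by H3K27ac in all 4 libraries, and the HOXB3 body held the H3K27ac region at 48553036–48558033. HOXC13 had the highest H3K36me3 cover, with 34.1% and 31.4% in Si1235 and 30.3% and 25.2% in NC1235. HOXB7 had 18.9% and 16.1% in Si1235 and 0% and 10.3% in NC1235. HOXC9 had 8.25% and 10.7% in Si1235 and 17.4% and 0% in NC1235. HOXA3 had 6.11% and 3.77% in Si1235 and 8.21% and 2.43% in NC1235. HOXA9, the most fully acetylated HOXA start, had 0% in both Si1235 libraries and 0% and 13.2% in NC1235. The bodies of HOXC4, HOXC5 and HOXC6 overlap, so 1 peak counts for each of them. Their only peaks were 1 in each Si1235 library, at different places, with −log10 q of 2.40 in replicate 1 and 3.12 in replicate 2.

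**Figure D3:**
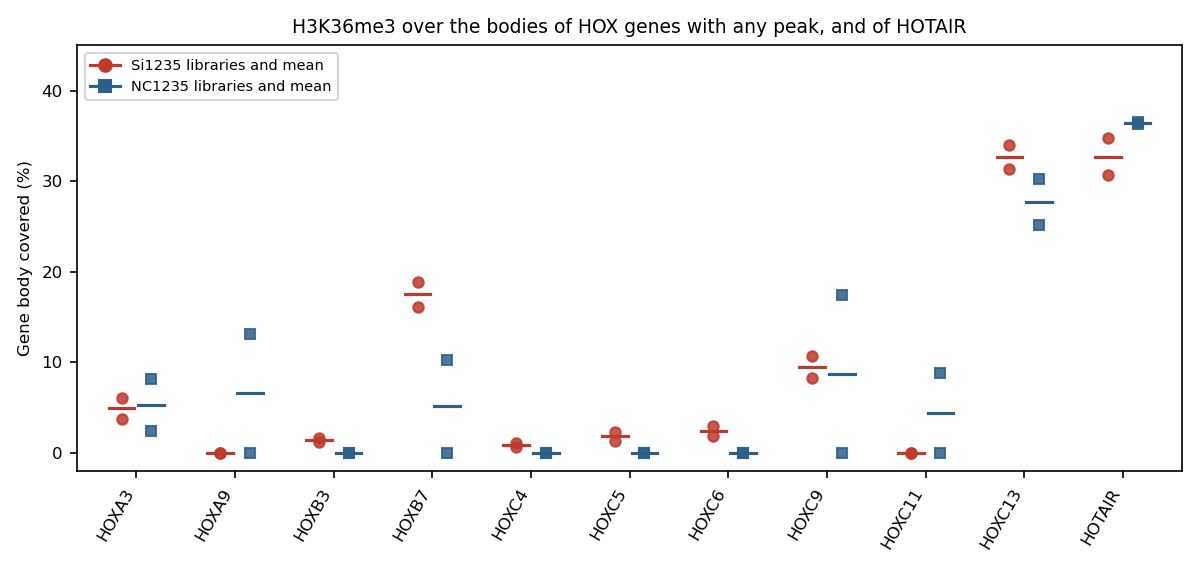
Percent of each gene body covered by H3K36me3 peaks, for the 10 HOX genes with any peak and for the antisense RNA gene HOTAIR (points, libraries, and lines, arm means, Si1235 left of NC1235, n = 2 per arm). HOXC13 and HOTAIR were the most covered, and both Si1235 values lay above both NC1235 values at HOXB7 and HOXC13 and, with 0% in NC1235 and at most 3.02% in Si1235, at HOXB3, HOXC4, HOXC5 and HOXC6.

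The comparison of arms asked whether the ASO transfection that differs between Si1235 and NC1235 went with a change of these marks at HOX genes. With all libraries in the test, no HOX gene passed for any mark. With limma and Benjamini-Hochberg adjustment over all genes tested, at a threshold of 0.05, 0 of 19 HOX starts were called for H2AZ, where 0% of 13971 genes were called (812 at an unadjusted p under 0.05). For H3K27ac 0 of 13 were called, against 0.422% of 12324 genes (52 genes, 0.195% of the total with Si1235 higher and 0.227% with Si1235 lower). Leaving out any 1 of the 4 H3K27ac libraries gave 132 to 264 genes. For H3K36me3 0 of 4 bodies were called, where 0% of 8455 genes were called (649 at an unadjusted p under 0.05), and 7 to 159 genes were called with any 1 library left out. These p-values rest on library-to-library spread, part or all of which may be technical. With 2 libraries per arm the intervals of the differences are wide, so a missed threshold does not show that the arms were alike.

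The arms did not overlap at 4 of 19 HOX starts for H2AZ, against 31.7% of all genes tested. Those with both Si1235 values higher were HOXA5, HOXA6 and HOXC10, 3 of 19 against 21% of all genes, and HOXB2 was the 1 of 19 with both lower, against 10.7%. The widest difference was at HOXB2, with 68.0% and 57.0% in Si1235 and 75.1% and 74.05% in NC1235, a difference of −12.1 percentage points with a standard error of 5.57, a 95% interval of −28.6 to 4.48 and a limma adjusted p of 0.902. HOXA5 had 70.9% and 67.55% in Si1235 and 66.75% and 56.6% in NC1235, a difference of 7.55 points (−8.45 to 23.55) that was −0.95 at 0.5 kb to either side. HOXA6 had 64.9% and 60.95% in Si1235 and 60.85% and 51.75% in NC1235, a difference of 6.625 points (−8.19 to 21.4). HOXC10 had 66.15% and 62.05% in Si1235 and 61.25% and 59.85% in NC1235, a difference of 3.55 points (−7.57 to 14.7). The largest mean difference, 30.4 points at HOXC11, came with overlapping arms and an interval of −29.8 to 90.6. Single libraries moved these values. With 1 library left out, HOXB2 ran from −17.6 (without Si1235 replicate 1) to −6.575 (without Si1235 replicate 2), HOXA5 from 2.475 (without NC1235 replicate 2) to 12.6 (without NC1235 replicate 1), and HOXA6 from 2.075 to 11.2 with the same NC1235 libraries left out. HOXC10 ran from 1.5 (without Si1235 replicate 1) to 5.60 (without Si1235 replicate 2).

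**Figure D4:**
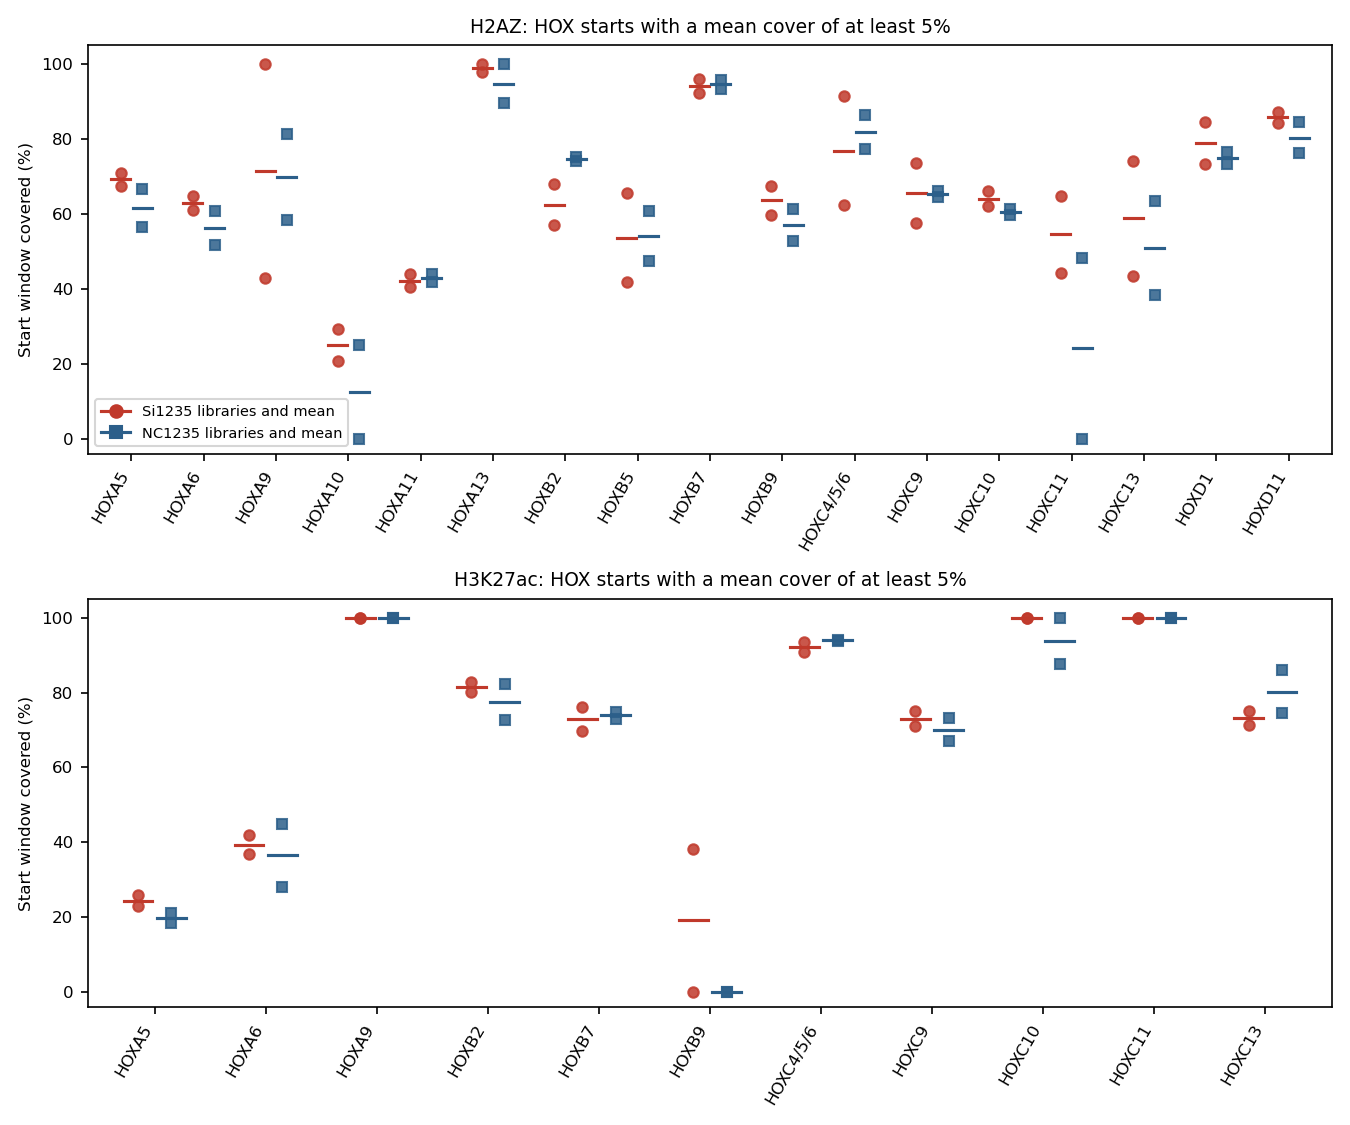
Percent of the start window covered by peaks of H2AZ (upper panel) and H3K27ac (lower panel) at HOX genes that averaged 5% or more, per library (points) with the arm mean (lines), Si1235 left of NC1235, n = 2 per arm. At HOXA9 the Si1235 H2AZ values of 100% and 42.95% lay on either side of both NC1235 values, and no HOX start passed the test.

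For H3K27ac the arms did not overlap at 4 of 13 HOX starts, which are 2 distinct windows, against 40.6% of all genes tested. Si1235 was higher at 1 of 13, against 23% of all genes, and lower at 3 of 13, against 17.6%. HOXA5 had the lowest adjusted p among the HOX starts, 0.552 by limma, for a difference of 4.60 points (−2.61 to 11.8) that was −8.70 at 0.5 kb to either side. At the shared start of HOXC4, HOXC5 and HOXC6 the Si1235 values were lower by −1.65 points (−5.33 to 2.03), and the difference was 0.53 at 2.5 kb to either side. Leaving out NC1235 replicate 1 gave a single call, HOXC10, with a difference of 12.35 points and a limma adjusted p of 0.0112. That call compares 100% in both Si1235 libraries with 87.65% in the lone NC1235 library that remained, which is assumed to vary like the others, and with that library included HOXC10 had a difference of 6.175 points and an adjusted p of 0.717. HOXA9 and HOXC11 were at 100% in all 4 libraries and could not show a rise.

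For H3K36me3 the arms did not overlap at 2 of 4 HOX bodies, against 34% of all genes tested, both with Si1235 higher, against 20.3%, and none with Si1235 lower, against 13.7%. HOXB7 differed by 12.4 points with a standard error of 4.13 and a 95% interval of 2.30 to 22.5. Its unadjusted p of 0.0238 became 0.549 by limma with adjustment over all genes. The direction rested on weak peaks. The Si1235 peaks in the body had −log10 q of 2.38 to 4.05, against 8.23 for the NC1235 replicate 2 peak. With only peaks of −log10 q of at least 5, cover was 0% in both Si1235 libraries and 0% and 10.3% in NC1235 libraries, a difference of −5.14 points, and with equally many top peaks per library it was −1.66 points. HOXB7 then fell below the mean cover needed for the test. Without NC1235 replicate 1 the difference was 7.24 points. HOXC13 differed by 4.99 points (−7.56 to 17.5), with an adjusted p of 0.924, and by 2.43 without NC1235 replicate 2 and 7.55 without NC1235 replicate 1.

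H3K9ac had 1 library per arm and no test. Among the 21 HOX starts with any H3K9ac, the widest differences were −21.45 points at HOXA10, with 0% in Si1235 and 21.45% in NC1235, −19.2 points at HOXD1 and −17.75 points at HOXB7, with 77.4% in Si1235 and 95.15% in NC1235. HOXA5 differed the other way, with 45.15% in Si1235 and 32.55% in NC1235. No replicate check of these values exists.

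Cover of whole clusters, from the first to the last base of the member genes, was compared between arms. H3K27ac covered 26.3 ± 0.424% of HOXC in Si1235 and 25.3 ± 0.153% in NC1235 (SD, n = 2 each), 20.3 ± 0.203% and 20.6 ± 0.111% of HOXA, 6.07 ± 0.328% and 5.78 ± 0.0961% of HOXB, and 1.70 ± 0.269% and 1.51 ± 0.067% of HOXD. HOXA and HOXC had separate arms, with exact permutation p = 0.3333 (two-sided), the smallest that 2 against 2 libraries can give, so no cluster could pass 0.05. H2AZ covered 18.6 ± 4.45% of HOXA in Si1235 and 14.2 ± 1.098% in NC1235 (exact p = 0.3333), the widest of these differences, at 4.38 points. It was 6.75 points between the replicates numbered 1 and 2.00 points between those numbered 2. The other H2AZ differences were 0.23 points in HOXB, 1.26 in HOXC and −0.19 in HOXD, and each turned its sign when a single library was left out. Without Si1235 replicate 1 they were −0.26 in HOXB and −0.66 in HOXC, without NC1235 replicate 2 −0.11 and −0.25, and in HOXD 0.56 without Si1235 replicate 2 and 0.75 without NC1235 replicate 1. In HOXA the H2AZ difference was 1.23 points without Si1235 replicate 1 and 7.53 without Si1235 replicate 2.

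H3K36me3 covered 0.790 ± 0.0614% of HOXB in Si1235 and 0.220 ± 0.310% in NC1235 (SD, n = 2 each), with separate arms and exact permutation p = 0.3333. The difference of 0.57 points was −0.10 with only peaks of −log10 q of at least 5. In HOXC H3K36me3 covered 7.41 ± 0.892% in Si1235 and 8.57 ± 0.872% in NC1235, a difference of −1.16 points with overlapping arms, and in HOXA 2.29 ± 0.963% and 2.46 ± 1.47%. H3K9ac, with 1 library per arm and no test, was lower in Si1235 in all 4 clusters, with differences of −0.58 points in HOXA, −0.59 in HOXB, −2.67 in HOXC and −1.53 in HOXD. The whole H3K9ac lists covered 73.9 Mb in Si1235 and 74.3 Mb in NC1235, also lower in Si1235.

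Of H2AZ regions in the clusters, formed by merging the peaks of the 4 libraries, 38 of 52 (73.1%) had a peak in every library. Of all H2AZ regions 49.1% did. None had peaks in both Si1235 and neither NC1235 library, against 2.54% of all H2AZ regions, and none the reverse, against 4.38%. For H3K27ac 19 of 22 regions (86.4%) had a peak in every library, against 64.8% of all regions. None lay in Si1235 alone, against 3.92% of all regions. In NC1235 alone there was 1, against 5.77%, a peak of 308 bp at chromosome 7: 27136144–27136451, 5387 bp from the HOXA4 start, with fold enrichments of 4.28 and 5.70. For H3K36me3 3 of 18 regions (16.7%) had a peak in every library, against 34.5% of all regions. In Si1235 alone there were 2, against 4.48% of all regions, both in HOXB. They were at chromosome 17: 48550232–48551093, inside HOXB3 and HOXB-AS1, and 48607738–48608259, inside HOXB7. Fold enrichments there were 5.25 and 4.48 inside HOXB3 and 3.10 and 3.64 inside HOXB7. None lay in NC1235 alone, against 2.8%. With any 1 library left out, regions in Si1235 alone numbered 1 to 5 for H2AZ, 0 to 2 for H3K27ac and 3 to 6 for H3K36me3, and those in NC1235 alone 0 to 2, 1 to 2 and 1 to 3. Median region widths in the clusters were 1292.5 bp for H2AZ, 2152 bp for H3K27ac and 559.5 bp for H3K36me3. Over all regions they were 687, 1148 and 729 bp. The part of width in the shares with a peak in every library was not tested.

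Genes that work with HOX proteins or control the clusters were read from lists. Of 9 HOX cofactor genes of the PBX, MEIS and PKNOX families, 6 were tested for H2AZ and 6 for H3K27ac, and 0 passed in either. The median H3K27ac difference of the 6 was 1.29 points, against 0 over all tested genes. MEIS1 had H3K27ac cover of 100% in all 4 libraries, and PBX2 had 90.35% and 88.5% in Si1235 and 78.05% and 77.5% in NC1235, a difference of 11.65 points with a limma adjusted p of 0.139. Of 12 trithorax genes, 10 were tested for H2AZ and for H3K27ac and 12 for H3K36me3, and 0 passed. Of 19 homeobox kin and cluster neighbours, 6 were tested for H2AZ, 3 for H3K27ac and 1 for H3K36me3, and 0 passed.

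Among 26 polycomb genes, 23 were tested for H2AZ and H3K27ac and 22 for H3K36me3, and 1 passed, EZH2 for H3K27ac, where 0.422% of all genes were called. The median H3K27ac difference of the 23 was −5 points, against 0 over all tested genes. EZH2, the enzyme that methylates H3K27 in the polycomb complex PRC2, fell to 82.7% and 83.35% in Si1235, against 100% in both NC1235 libraries. The difference was −17.0 points with a standard error of 0.365 and a limma adjusted p of 0.0194. The NC1235 values sat at the ceiling of the measure. The difference was −0.36 points with an adjusted p of 0.971 at 2.5 kb to either side. Elsewhere the call was lost at a difference as large or larger, −17.5 points with quantile normalization (adjusted p 0.115), −33.95 at 0.5 kb to either side (0.428) and −17.0 without NC1235 replicate 1 (0.115) or 2 (0.135). Without Si1235 replicate 1 or 2 it was −16.65 and −17.3 points and the call was kept, with adjusted p of 0.00947 and 0.0210.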

How the data were processed

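The submitters' processing notes name Bowtie2 2.2.9 for hg38, MACS2, HTSeq 2.0.3 and DESeq2 1.22.2, without the role of each. No peak-calling setting or control is given in the sources used here. The 15 deposited lists, 1 per library and none pooled, give each peak a position, a fold enrichment (a ratio over local background) and −log10 p- and q-values, as the authors' peak caller wrote them. No deposited −log10 q-value was below 2.00029. The peak names of both H3K9ac lists carry another residue's name, and the labels were followed. The 2 inputs had no peak list used here.

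Members and gene lists were chosen with earlier results of these data known. Starts came from the RefSeq start table of GRCh38.p14 (the hg38 assembly) for 20 members. The other 19 were given the outermost gene end by the strand of the listed genes of their cluster. The readthrough gene of HOXA10 and HOXA9 was left out by the symbol rule. Not every member counted is reported by name here. Percent cover was computed from peak positions with Python 3.11.15 and pandas 2.3.3. Genes (protein-coding and lncRNA for starts, protein-coding for bodies) with a mean cover of at least 5% were tested with limma 3.58.1 (R 4.3.3) with a trend and no replicate term, on Si1235 minus NC1235 in percentage points, with Benjamini-Hochberg adjustment over all genes of a mark. The code was tested on simulated data. Whole pileups were solved from fold and −log10 p within 0.002 on 1500 peaks per library. Cluster cover was tested by exact permutation.

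Members given in every library were, per cluster and mark, the 1 with the highest mean cover, those called or with the widest differences among arms that do not overlap (up to 6 per mark), and the neighbours at each H3K27ac border. HOXB5, HOXB9, HOXD1, the inner starts of HOXA3 and HOXA10, the fold enrichments and the cofactor, polycomb and marker genes named were chosen after their values were seen. Alternatives were another window width, stricter or equally many peaks, quantile normalization, no filter, a replicate block, leaving out each library and, chosen after seeing the data, the outermost end of every gene.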

Additional observations from a re-analysis of the deposited data

Results flagged for a closer look

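The single ChIRP library (chromatin isolation by RNA purification, which recovers DNA near a chosen RNA) lay outside the comparisons above and had peaks in the HOX clusters. Its title carries the name NC1235, the sources used here do not name the RNA its probes captured, and no control list for it was used. It had 35 peaks in the clusters, with 9 in HOXA, 12 in HOXB, 6 in HOXC and 8 in HOXD, above the limit of 3 that a count of 0 allows. That limit is a low bar for a list of 128273 peaks. The clusters held 6.63 peaks per 100 kb and 2.81% of their bases lay in peaks, against 4.34 per 100 kb and 1.74% over chromosomes 1 to 22 and X between the first and last peak of each. This difference was not tested. Fold enrichments ran from 4.54 to 55.8, and the median was 27.3 in HOXC and 9.63 in HOXB, against 11.05 over the whole list. A ChIRP peak fell in the start window of 6 of 39 HOX genes, or 15.4% (HOXC9, HOXD10 and HOXD13 among them), against 12.7% of 15793 other protein-coding genes. Of the 35 peaks, 2 overlapped an H2AZ peak of any library, 5 an H3K27ac peak and 8 an H3K9ac peak, and in HOXD 0 of 8 overlapped any of these.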

How the results depend on the processing

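Depth, unknown for lists without counts, limits which weak peaks are present. The count of H3K27ac calls over all genes, 52, became 0 with a replicate block, 7 at 2.5 kb and 7 at 0.5 kb to either side, and 132 to 264 with 1 library left out. The H3K36me3 count, 0, became 59 with quantile normalization and 7 to 159 with 1 library left out. The H2AZ count stayed at 0 under every alternative run. HOX calls were 0 under all alternatives for each mark, except for 0 to 1 in H3K27ac with 1 library left out. The block used the replicate numbers, which the labels do not tie to a shared culture or day. Deviations of same-numbered libraries correlated at 0.18 for H2AZ, 0.05 for H3K27ac and 0.24 for H3K36me3 over the tested genes. With 2 pairs these do not show pairing, and the block changed no HOX call. Cluster differences are the same with and without the block by arithmetic, so the block is no check of them. The block took EZH2 for H3K27ac to a limma adjusted p of 0.315. The cause of these moves was not tested.

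Signs turned as follows. HOXA5 differed by −0.95 for H2AZ and −8.70 for H3K27ac at 0.5 kb, and HOXC4, HOXC5 and HOXC6 by 0.53 for H3K27ac at 2.5 kb. HOXB7 differed for H3K36me3 by −5.14 with −log10 q of at least 5 and −1.66 with equally many peaks, untested since it fell below the cover filter. H3K36me3 cover of HOXA differed by 0.10 points with equally many peaks, against −0.17, and that of HOXB by −0.10 with −log10 q of at least 5, against 0.57. With 1 library left out, H2AZ differences ran from −0.26 to 0.71 in HOXB, −0.66 to 3.18 in HOXC and −1.14 to 0.75 in HOXD, and H3K36me3 in HOXA from −1.21 to 0.87. The H3K27ac cluster differences kept their sign under each alternative run.

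Regions in a single arm were counted under each setting. In Si1235 alone H2AZ had 0, and 2 with −log10 q of at least 5, 2 with equally many peaks, 2 where at least 50% of a region had to be covered, and 1 to 5 with 1 library left out. In NC1235 alone it had 0, then 1 with −log10 q of at least 5 and 0 to 2 with 1 library left out. H3K27ac had 0 to 2 in Si1235 alone and 1 to 2 in NC1235 alone with 1 library left out. H3K36me3 in Si1235 alone had 2, then 1 with −log10 q of at least 5, 1 with equally many peaks and 3 to 6 with 1 library left out. In NC1235 alone it had 0, then 1 where at least 50% of a region had to be covered and 1 to 3 with 1 library left out.

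Start classes moved with the window. At 2.5 kb to either side H2AZ had 0 marked, 26 part marked and 13 bare HOX starts, H3K27ac had 9 part marked, and H3K9ac had 9 marked and 17 part marked. With marked set at 25% or more, H2AZ had 1 part marked start.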
